A study of Xenopus laevis with 96 samples.

Results

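The posterior hox genes described here are the 9 genes whose deposited symbol names hox cluster A, B, C or D, a paralog group from 5 to 13 and an L or S copy, out of 16322 genes with deposited log2 expression values and 31430 genes counted. They are hoxa5.S and hoxc5.L of group 5, hoxb6.S, hoxc6.L and hoxc6.S of group 6, hoxa7.L and hoxa7.S of group 7, hoxc8.S of group 8 and hoxa9.S of group 9. The choice was made by symbol alone, but among genes with deposited log2 values, from which the authors had removed weakly expressed genes. A posterior hox gene removed at that step could not become a member. Groups 10 to 13 had no member under the rule, xhoxc8 and hoxb9 fell outside it because their symbols carry no L or S, and other posterior hox genes were not analysed here.

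RNA was sequenced from whole Xenopus laevis embryos of 6 clutches, A to F, each laid by a single female and divided over 4 groups, for which the labels give no mutation or transgene. Embryos were kept for 2 h, up to the early gastrula (stage 10.25), in 10 nM retinoic acid (RA), in 50 μM DEAB, in 0.5% ethanol, or in none of these (control). DEAB is an inhibitor of the retinaldehyde dehydrogenases that make RA. The embryos were then washed. Each clutch and group was sampled 0, 1.5, 3 and 4.5 h after the wash, which gave 6 libraries per group and time point and 96 in all. Every library held a pool of embryos. RA and DEAB came from stocks in DMSO. The paper does not say whether the control received DMSO, so agent and solvent cannot be told apart here. In whole embryos more cells expressing a gene and more RNA per cell cannot be told apart either.

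Hox genes encode homeodomain transcription factors that give cells a position along the head-to-tail axis. Within a cluster they lie in the order of their paralog groups, and in vertebrates the low-numbered genes are generally switched on earlier and reach further towards the head than the high-numbered ones. RA, which is made in the mesoderm of the gastrula and neurula, acts directly on several anterior hox genes through response elements bound by its receptors, while the posterior groups are known for their dependence on Fgf, Wnt and Cdx factors. Xenopus laevis is an allotetraploid, so that most genes exist as an L and an S copy (homeologs).

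The total of counts per library ranged from 5528562 to 15869722 (median 11691900), and the lowest total belonged to control clutch D at 4.5 h. Markers of mesoderm, organizer, endoderm, neural tissue and epidermis were found in part (9 of 12, 4 of 6, 6 of 10, 2 of 8 and 8 of 10 listed genes). Every one found averaged above 1 CPM (the usual count normalised to the library total). They were looked up among genes with deposited log2 values, without weakly expressed genes, so this outcome was partly fixed in advance. RNA of some markers of each tissue was present, with only 2 genes for neural tissue. As a check of the treatments, dhrs3.L, a retinaldehyde reductase gene, averaged 100.5 CPM in RA, 11.6 CPM in DEAB and 21.9 CPM in control at 0 h. cyp26a1.L, which encodes an RA-degrading enzyme and which the authors had used to choose the clutches, averaged 286 CPM in RA, 41.4 CPM in DEAB and 67.8 CPM in control. Both genes were also called lower in ethanol than in control at 0 h. Their median log2 fold change was -0.459 in ethanol and -0.751 in DEAB, so a fall at 0 h was not particular to DEAB.

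In control embryos all 9 posterior hox genes started at or near 0 counts at 0 h and were higher at each later time point. A gene is called higher or lower where edgeR's quasi-likelihood test gave an adjusted p under 0.05 over all genes tested. From 0 to 1.5 h, 7 of the 9 were called higher (all but hoxa5.S and hoxa7.L), beside 23.8% of all genes called higher and 48.3% called in either direction. All 9 were called higher at 3 against 1.5 h (beside 23.8% of all genes higher and 50.1% in either direction), at 4.5 against 3 h (21.9% and 46.9%) and at 4.5 against 0 h (39.6% and 82.9%), and none was called lower. The 9 passed the filter on low counts through their late libraries, so these counts lend the genes no support as a group. The median of the fitted log2 fold changes at 4.5 against 0 h was 6.93, or 6.86 with hoxa9.S held at its bound, beside -0.08 over all genes. The number called was sensitive to the processing at 2 steps: limma on the deposited log2 values called 2 of 9 at 1.5 against 0 h, and edgeR without the clutch term called 3 of 9 at 4.5 against 3 h.

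**Figure D1:**
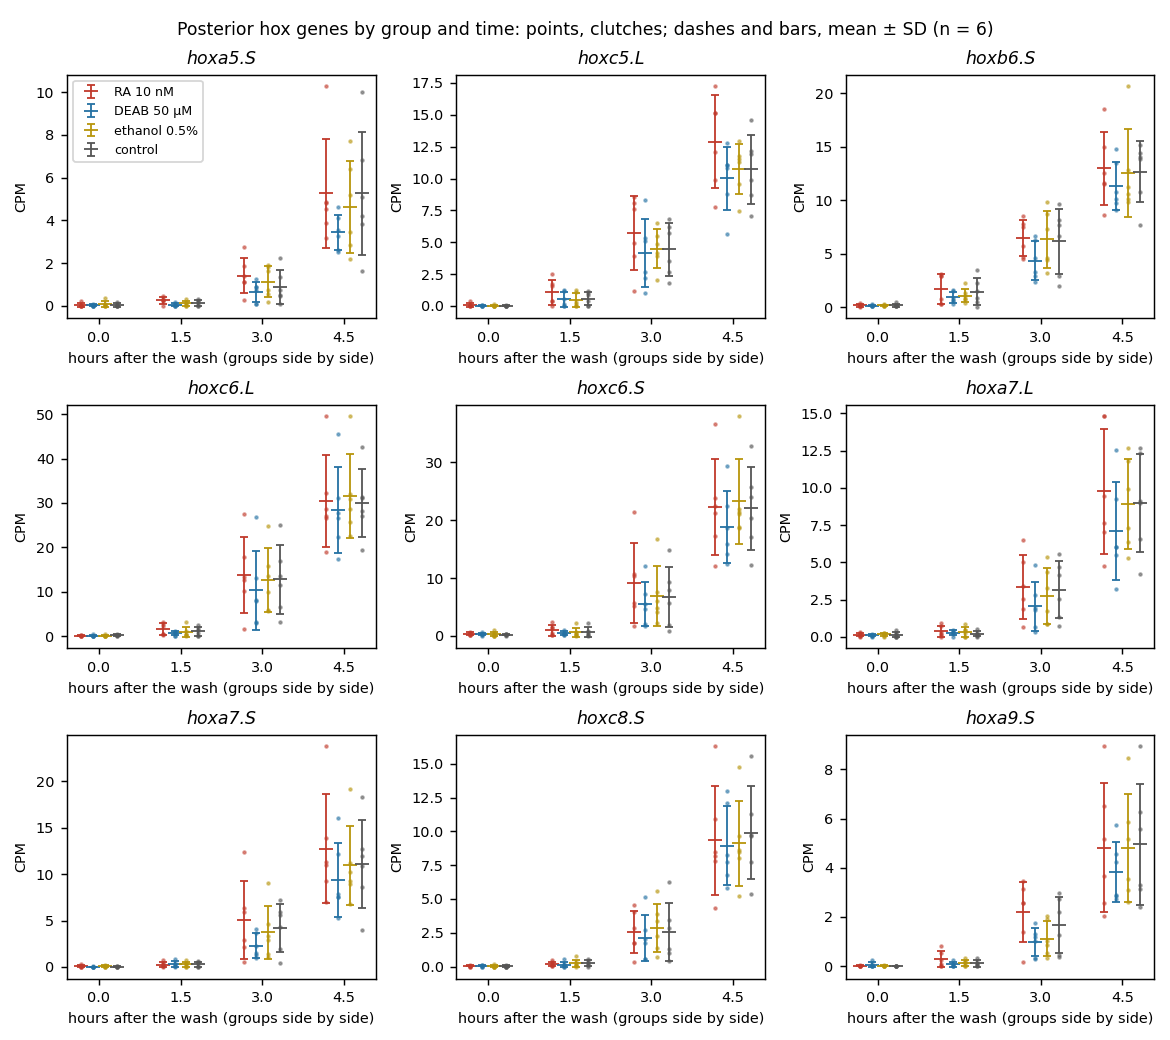
CPM (vertical axis, a scale of its own for each gene) of the 9 posterior hox genes against hours after the wash, with RA, DEAB, ethanol and control set side by side at each time point. Points are clutches, dashes and bars the mean ± SD of 6 clutches. All groups lie near 0 at 0 h and climb together to 4.5 h, where hoxc6.L averaged 30.5 CPM in RA, 28.5 in DEAB, 31.5 in ethanol and 30.0 in control, and the spread between clutches exceeds the distance between groups.

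Group 5 genes act at the neck and upper trunk level in mouse, where Hoxa5 is needed for the airways. In control, hoxa5.S (Xelaev18033072m.g) had 0 counts in 4 of 6 libraries at 0 h and ranged from 1.61 CPM in clutch C to 10.0 CPM in clutch D at 4.5 h (median 4.64). Its log2 fold change was 6.55 ± 0.54 (SE) at 4.5 against 0 h (adjusted p = 3.00e-10), and the rise came late, with a step of 2.61 ± 0.37 from 3 to 4.5 h. The spread among clutches at 4.5 h was wide, but every control library at 4.5 h lay above every one at 0 h.

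For hoxc5.L (Xelaev18013561m.g), control clutch F held the only count at 0 h. Its control level at 1.5 h was 0 in clutches B and C, with a median of 0.602 CPM and a highest value of 1.14 CPM in clutch D. At 3 h it ran from 1.78 CPM in clutch C through a median of 4.65 to 6.85 CPM in clutch D, and at 4.5 h from 7.06 CPM in clutch C through 10.9 to 14.6 CPM in clutch A. The time points from 1.5 h on did not overlap. Summed over the 6 control libraries, there were 605 counts at 4.5 h and 1 count at 0 h. The ratio of the rates was 803 with an exact 95% interval of 144 to 31780, which covers counting error only. edgeR's separate test of the fitted change from 0 to 4.5 h gave an adjusted p of 3.66e-13.

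Group 6 genes are expressed in the trunk, and Hoxc6 is widely used in Xenopus as a marker of posterior neural tissue. The level of hoxc6.L (Xelaev18013563m.g) in control was 0.0631, 0.247 and 0.528 CPM at 0 h (lowest, median and highest clutch) and 0.107, 1.12 and 2.49 CPM at 1.5 h. It was 3.20, 12.6 and 25.1 CPM at 3 h and 19.5, 29.7 and 42.6 CPM at 4.5 h. Clutch C was the lowest and clutch D the highest at 1.5, 3 and 4.5 h, and the highest value at 3 h lay above the lowest at 4.5 h. Within clutches the gene was higher at 4.5 than at 3 h in 6 of 6, with a log2 step of 1.43 ± 0.24 (adjusted p = 8.19e-05), and 6.93 ± 0.37 from 0 to 4.5 h (adjusted p = 3.34e-13).

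The S copy, hoxc6.S (Xelaev18016025m.g), rose by 6.70 ± 0.41 on the log2 scale from 0 to 4.5 h, where control ranged from 12.2 CPM in clutch C to 32.8 CPM in clutch D. hoxb6.S (Xelaev18045989m.g), the only member of cluster B, rose by 6.26 ± 0.39. At 0 h it had counts in each control library and in 23 of 24 libraries of all groups, whereas hoxa9.S had counts in 4 of 24. At 4.5 h hoxb6.S ranged from 7.67 CPM in control clutch C to 15.1 CPM in control clutch D.

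Group 7 genes act in the trunk. hoxa7.S (Xelaev18033074m.g) was at 0 in 4 of 6 control libraries at 0 h with a highest value of 0.151 CPM in clutch D, and its lowest, median and highest levels were 0, 0.266 and 0.626 CPM at 1.5 h. They were 0.444, 4.93 and 7.19 CPM at 3 h, and 3.94, 11.4 and 18.3 CPM at 4.5 h. Clutch C was the lowest at 3 and 4.5 h, and its 4.5 h level lay within the range of the other clutches at 3 h. The log2 fold change from 0 to 4.5 h was 7.73 ± 0.43 (adjusted p = 5.38e-13), higher in 6 of 6 clutches.

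Its homeolog hoxa7.L (Xelaev18030993m.g) had the smallest fitted rise of the 9, by 6.02 ± 0.42 (adjusted p = 2.08e-11), and was not called at 1.5 against 0 h (0.44 ± 0.71, adjusted p = 0.628). Its largest step, of 3.97 ± 0.46, lay between 1.5 and 3 h. In control it ran from 0.710 CPM in clutch C through 3.35 to 5.59 CPM in clutch A at 3 h, and from 4.24 CPM in clutch C through 9.04 to 12.7 CPM in clutch A at 4.5 h. The order of these clutches was thus the same at both ends of the range.

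Group 8 and 9 genes act in the lower trunk in mouse, where Hoxc8 is needed for thoracic vertebrae and motor neurons and Hoxa9 also for blood stem cells. hoxc8.S (Xelaev18016028m.g) had 3 counts in all in the 6 control libraries at 0 h, in clutch D at most 0.151 CPM. Its control levels were 0, 0.211 and 0.538 CPM at 1.5 h (lowest, median and highest clutch), 0.444, 2.05 and 6.28 CPM at 3 h, and 5.35, 9.68 and 15.6 CPM at 4.5 h. Clutch C was the lowest and clutch D the highest at both 3 and 4.5 h. With 537 counts at 4.5 h, the ratio of rates to 0 h was 238 (exact 95% interval 80.9 to 1156). The adjusted p of edgeR's separate test of the fitted change was 7.82e-13.

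hoxa9.S (Xelaev18033075m.g) was the only member with 0 counts in all 6 control libraries at 0 h, which allows a level of up to 0.0369 CPM over the group (3 counts). It stood at 0, 0.0878 and 0.348 CPM at 1.5 h and at 0.366, 1.75 and 2.97 CPM at 3 h. At 4.5 h it ran from 2.42 CPM in clutch C through 4.45 to 8.95 CPM in clutch D. The rate of the summed counts was at least 116-fold higher than the 3-count limit at 0 h. For the fitted change, edgeR's separate test gave an adjusted p of 1.02e-10. Clutches B and C, at 0.366 and 0.444 CPM, were the only ones below 1 CPM at 3 h.

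How far each gene had come was set on a common scale by dividing its level by that of the same clutch at 4.5 h. In control at 3 h, hoxb6.S had reached 46.1% ± 17.2 (SD, n = 6) of its 4.5 h level, hoxc5.L 40.4% ± 14.3 and hoxc6.L 39.8% ± 16.9. The others followed with hoxa7.S at 34.3%, hoxa7.L at 33.1%, hoxa9.S at 31.3%, hoxc6.S at 26.7%, hoxc8.S at 22.3% ± 12.8 and hoxa5.S at 15.1% ± 9.60. Neighbours in this order differed by less than the spread between clutches. Over all clusters, the order did not run with the paralog number, since hoxa5.S had the lowest share and hoxa9.S stood in the middle. In cluster A, hoxa5.S lay below both hoxa7 copies and hoxa9.S. In cluster C the mean shares did fall with the paralog number, from hoxc5.L through hoxc6.L and hoxc6.S to hoxc8.S. There hoxc5.L and hoxc6.L each lay above hoxc8.S in 6 of 6 control clutches. The share of hoxc6.S was above that of hoxc8.S in 4 of 6, and that of hoxc5.L above hoxc6.L in 3 of 6.

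Over all 4 groups and 6 clutches, hoxa5.S had the lowest share of the 9 in 13 of 24 sets and hoxb6.S the highest in 12 of 24. hoxa5.S stood below another member in 35 of 48 pairings of members and clutches in RA, 39 of 48 in DEAB and 40 of 48 in ethanol, against 46 of 48 in control. For hoxc8.S the numbers were 42, 39, 27 and 38 of 48, and hoxa9.S had 39 of 48 in ethanol. A lag of hoxa5.S behind all others was thus clear in control only. At 1.5 h only hoxb6.S, at 10.3% ± 8.21, averaged above 5% in control. These shares depend on the level at 4.5 h, when the genes were still climbing, and were not tested.

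**Figure D2:**
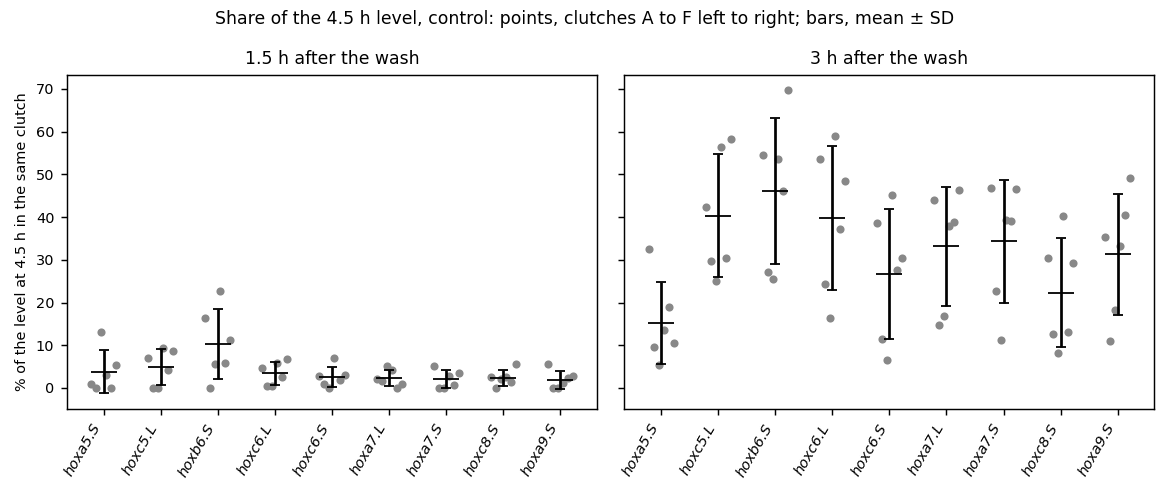
Level of each posterior hox gene in control as a percentage of the level of the same clutch at 4.5 h (vertical axis), at 1.5 h and 3 h after the wash. Points are clutches A to F from left to right, and bars give the mean ± SD. At 3 h the means run from 15.1% for hoxa5.S to 46.1% for hoxb6.S, and clutches B and C lie low for most genes.

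Against control, no posterior hox gene was called in RA or in DEAB at any time point. The estimates nevertheless lay mostly above 0 for RA and below 0 for DEAB, and they were widest apart when RA was set against DEAB. RA against DEAB is the difference of these estimates within the same fit, so the wider gap is no separate result. The ranges of the groups overlapped for every member in every comparison at each time point. The share of all genes with overlapping ranges was not worked out, so the overlap cannot be read as a trait of the members. The RA, DEAB and ethanol comparisons share the control libraries, so their values below are given side by side and not as independent results. The members also moved together across libraries, so members that agree in direction are not independent results either. At 0 h no member passed the filter on low counts. Without the filter all 9 could be tested at 0 h and none was called in RA or DEAB against control or in RA against DEAB, beside 0.537%, 2.37% and 0.464% of all genes called in the filtered fits. In each of the 3 comparisons 0 of 9 had an unadjusted p under 0.05, beside 19.5%, 22.3% and 5.04% of all genes in the filtered fits.

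At 1.5 h hoxc5.L, hoxb6.S and hoxc6.L could be tested, and edgeR called 0 of 3 in RA against control, beside 0.655% of all genes. hoxc5.L ran from 0 CPM in clutch C through a median of 0.957 to 2.52 CPM in clutch A in RA, against 0, 0.602 and 1.14 CPM in control. Clutch A was labelled stage 11.5 at this hour and the other clutches stage 11. Its log2 fold change was 0.92 ± 0.33 in RA against control (adjusted p = 0.267, unadjusted p = 0.0111, higher in 5 of 6 clutches), the only one of the 3 with an unadjusted p under 0.05, beside 11.7% of all genes. hoxc6.L averaged 1.63 CPM in RA, 0.668 CPM in DEAB and 1.15 CPM in control, and its log2 fold change was -0.81 ± 0.37 in DEAB against control (adjusted p = 0.620). In DEAB against control 0 of 3 were called, beside 0% of all genes, with 1 of 3 at an unadjusted p under 0.05, beside 7.75%. Neither DESeq2 nor limma called a member at this time point.

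Set against each other at 1.5 h, RA and DEAB differed in the same direction for all 3 genes, with log2 fold changes of 1.11 ± 0.33 for hoxc5.L, 0.80 ± 0.33 for hoxb6.S and 1.24 ± 0.35 for hoxc6.L. For these genes that direction followed from estimates above control in RA and below it in DEAB. All 3 had an unadjusted p under 0.05, beside 7.40% of all genes, and 0 of 3 were called, beside 1.04% of all genes. hoxc5.L and hoxc6.L passed the filter in this fit, which held the RA libraries, but not in that of ethanol and control. The filter thus shaped the count of 3. Without it 8 of 9 log2 fold changes were positive and 6 of 9 had an unadjusted p under 0.05. The smallest adjusted p was 0.133, for hoxc6.L. This gene was called without the filter on low counts (adjusted p = 0.0294), without clutch B (0.00343) and in clutches A, D, E and F alone (0.00606). DESeq2 and limma did not call it. Clutches A, D, E and F were chosen after the data had been seen. Shares of all genes in these alternative fits are not given here, so their counts cannot be read as a trait of the members. Clutches B and C were both low for these genes at this time, with hoxc5.L at 0 counts in both in control.

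At 3 h all 9 genes were tested. In RA against control the fitted log2 fold changes were positive for 9 of 9, with a median of 0.15 and a range from 0.05 to 0.72, beside a median near 0 over all genes. None was called (0 of 9 with edgeR, DESeq2 and limma, beside 0.16% of all genes), and 0 of 9 had an unadjusted p under 0.05, beside 6.81% of all genes. hoxa5.S had the largest difference, with 1.42 CPM in RA and 0.889 CPM in control (0.72 ± 0.42, adjusted p = 0.792), and hoxc6.S, with 9.18 and 6.73 CPM, was higher in RA in 6 of 6 clutches (0.44 ± 0.21, adjusted p = 0.732).

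At 3 h DEAB lay below control in 36 of 54 sets of gene and clutch and above it in 18. The log2 fold changes of this comparison were negative for 9 of 9 genes (median -0.42, beside a median near 0 over all genes). None was called, beside 0.0361% of all genes, again with all 3 tools, and 4 of 9 had an unadjusted p under 0.05, beside 9.87% of all genes. These 4 were hoxb6.S (-0.48 ± 0.20), hoxa7.L (-0.74 ± 0.24), hoxa7.S (-0.83 ± 0.27) and hoxa9.S (-0.80 ± 0.32), and their smallest adjusted p was 0.324. hoxa7.S ran from 0.963 CPM in clutch C through 1.87 to 4.09 CPM in clutch D in DEAB, against 0.444, 4.93 and 7.19 CPM in control. The ranges overlapped, and the gene was lower in DEAB in clutches A, D, E and F and higher in clutches B and C. In clutches A, D, E and F alone hoxa7.S was called lower in DEAB (-1.16, adjusted p = 0.0373). This choice was made after the data had been seen and left out both clutches that went the other way. The call therefore lends no support.

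RA against DEAB gave the widest separation at 3 h, with positive log2 fold changes for 9 of 9, a median of 0.69 and a range from 0.36 for hoxc8.S to 1.20 for hoxa9.S. In the same fit it is the difference of RA and DEAB against control. Its sign for 9 of 9 and its larger size followed from those comparisons and are no further result. An unadjusted p under 0.05 was found for 8 of 9, all but hoxc8.S, beside 7.29% of all genes. None was called, beside 0.969% of all genes, and DESeq2 and limma also called 0. hoxa9.S was nearest to the threshold (1.20 ± 0.31, adjusted p = 0.0873). It ran from 0.185 CPM in clutch C through 2.55 to 3.46 CPM in clutch D in RA, against 0.289, 1.09 and 1.75 CPM in DEAB, and was higher in RA in 5 of 6 clutches, with clutch C as the exception.

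Whether members passed the threshold in this comparison depended on the filter and on the clutches. Without the filter, hoxc6.S, hoxa7.S and hoxa9.S were called higher in RA than in DEAB (adjusted p = 0.0342, 0.0079 and 0.0160). The same 3 genes were called in clutches A, D, E and F alone, a choice made after the data had been seen. Without clutch B hoxa9.S was called (0.0219), and without clutch C hoxa7.S (0.0367). Shares of all genes called in these fits are not given here, so the counts cannot be read as a trait of the members. Clutch C was the clutch with the lowest ratio of RA to DEAB for 6 of the 9 genes, among them hoxc6.L, at 0.588, while clutch E had the highest ratio for 8 of 9, up to 14 for hoxa5.S. That ratio of hoxa5.S rests on 12 counts in RA and 1 count in DEAB.

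**Figure D3:**
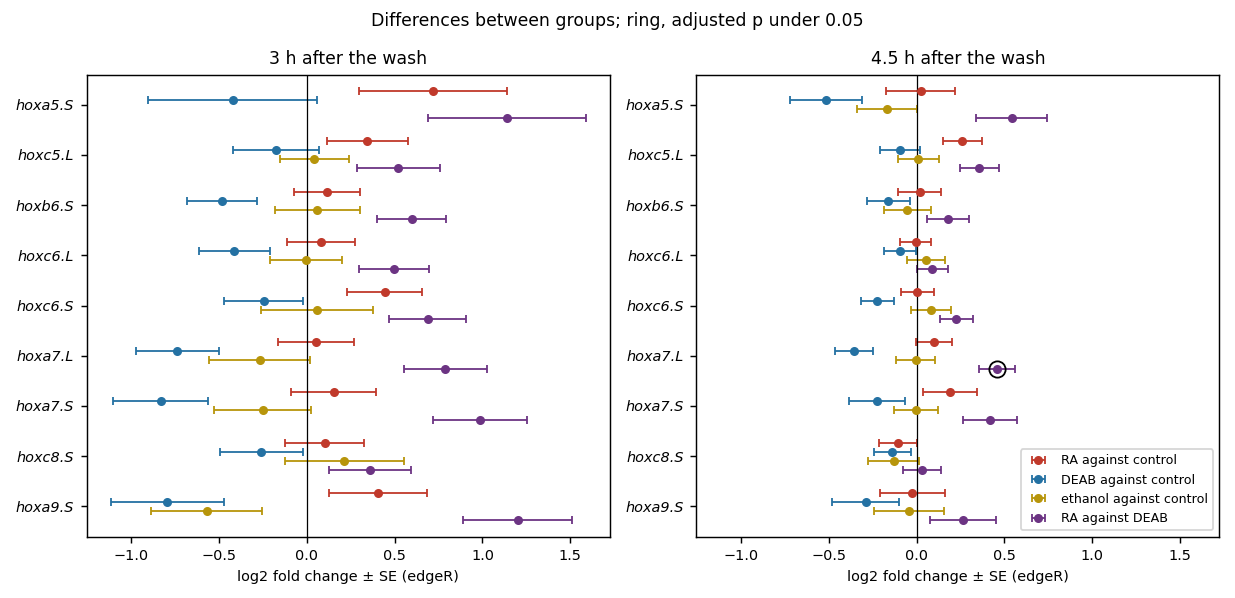
log2 fold change ± SE (horizontal axis) of each posterior hox gene in RA, DEAB and ethanol against control and in RA against DEAB, at 3 h and 4.5 h after the wash. hoxa5.S did not pass the filter in the ethanol comparison at 3 h and has no point there. RA against DEAB lies above 0 for 9 of 9 genes at both times, and the ring marks hoxa7.L at 4.5 h, the only one with an adjusted p under 0.05.

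By 4.5 h the differences had narrowed. RA against control was centred on 0, with 6 genes above and 3 below it and a median of 0.02, and 0 of 9 were called with any of the 3 tools, beside 0% of all genes. Only hoxc5.L had an unadjusted p under 0.05, beside 7.38% of all genes. It ran from 7.73 CPM in clutch C through 13.6 to 17.3 CPM in clutch D in RA, against 7.06, 10.9 and 14.6 CPM in control, higher in 5 of 6 clutches (0.26 ± 0.11, adjusted p = 0.628).

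In DEAB against control 9 of 9 remained negative at 4.5 h, with a median of -0.22. None was called with edgeR, DESeq2 or limma, beside 0.263% of all genes, and 3 of 9 had an unadjusted p under 0.05, beside 10.5% of all genes. These were hoxa5.S (3.44 CPM in DEAB and 5.27 CPM in control, -0.52 ± 0.21), hoxc6.S (18.8 and 22 CPM, -0.22 ± 0.09) and hoxa7.L (7.09 and 8.98 CPM, -0.36 ± 0.11, adjusted p = 0.193). hoxa7.L was lower in DEAB in 6 of 6 clutches. hoxa5.S was called when clutch C was left out (-0.75, adjusted p = 0.0302). Clutch C was the only clutch in which hoxa5.S was higher in DEAB, so that call lends no support.

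RA against DEAB at 4.5 h gave the only call of a treatment comparison. hoxa7.L stood at 14.8, 7.66, 4.77, 14.8, 7.04 and 9.43 CPM in RA, against 12.5, 6.02, 3.22, 9.25, 5.51 and 6.0 CPM in DEAB, in clutches A, B, C, D, E and F. In ethanol the same clutches had 12.7, 9.91, 5.32, 11.8, 6.38 and 7.32 CPM, and in control 12.7, 9.11, 4.24, 12, 6.53 and 8.97 CPM. RA was above DEAB in every clutch, by ratios from 1.18 in clutch A to 1.60 in clutch D, although the ranges of RA and DEAB overlapped because clutches A and D were high and clutch C low in both. The log2 fold change was 0.46 ± 0.10 (adjusted p = 0.0424 with edgeR, 1 of 9 called, beside 0.815% of all genes called and 0.724% called higher). The call was lost in 11 of 12 alternatives, among them the omission of any single clutch from A to F, with log2 fold changes from 0.37 to 0.53. The adjusted p over these 12 ran from 0.0421, with no filter on low counts, to 1 without the clutch term and in 1 fit of all time points, and it was 0.0903 with DESeq2, 0.0562 with limma and 0.0534 to 0.219 without each clutch in turn.

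**Figure D4:**
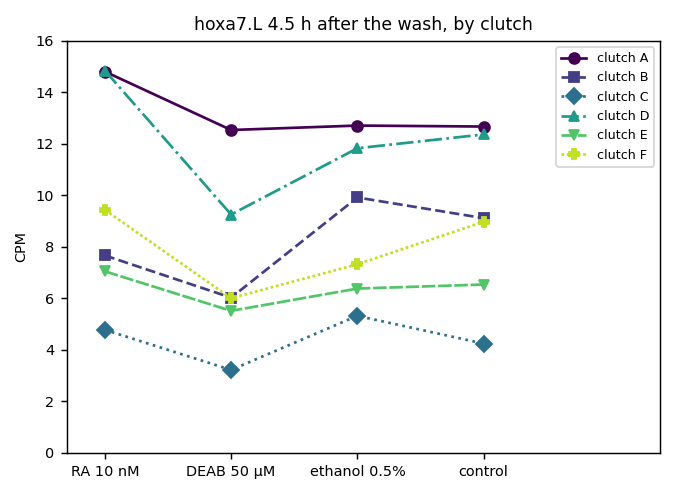
Level of hoxa7.L in CPM (vertical axis, from 0) at 4.5 h after the wash in RA, DEAB, ethanol and control, with a line for each clutch. Every line stands higher in RA than in DEAB, by the smallest ratio in clutch A (1.18) and the largest in clutch D (1.60), and clutch C is the lowest in all 4 groups.

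The other 8 genes also had positive log2 fold changes in RA against DEAB at 4.5 h, and the median of the 9 was 0.27. Including hoxa7.L, 5 of 9 had an unadjusted p under 0.05, beside 7.79% of all genes. hoxc5.L (0.36 ± 0.11), hoxa7.S (0.42 ± 0.16) and hoxa5.S (0.54 ± 0.20) were among them, with adjusted p of 0.226, 0.406 and 0.420. hoxc6.L (0.09 ± 0.09) and hoxc8.S (0.03 ± 0.11) were close to 0.

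Whether the effects of RA and DEAB differed between time points was tested over the 72 control, RA and DEAB libraries. The interaction of treatment and time was called for 0 of 9 posterior hox genes with edgeR, beside 0.00453% of all genes, with 0 of 9 at an unadjusted p under 0.05, beside 1.22%, and 0 called with limma. hoxa9.S had the smallest unadjusted p (0.0607). The narrowing of the differences from 3 to 4.5 h is therefore a description of the estimates.

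Ethanol left the posterior hox genes without a common direction. At 0 h, where no member passed the filter, edgeR without it called 0 of 9, beside 2.89% of all genes called in the filtered fit, with 0 at an unadjusted p under 0.05, beside 22.3%. At 1.5 h the only gene tested, hoxb6.S, was not called (0 of 1, beside 0.065% of all genes, unadjusted p = 0.240, where 9.20% of all genes had one under 0.05). At 3 h, with 8 genes tested, 4 fold changes were positive and 4 negative, with a median of 0.02, and at 4.5 h 3 were positive and 6 negative, with a median of -0.01. edgeR and DESeq2 called 0 at both times, beside 0% and 0.00531% of all genes, and 0 had an unadjusted p under 0.05, beside 4.83% and 6.41%. hoxa9.S had the largest difference at 3 h, with 1.12 CPM in ethanol and 1.67 CPM in control (-0.57 ± 0.32, adjusted p = 0.972). At 4.5 h the difference lay between -0.17 and 0.08 for every gene.

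Against ethanol in place of control, no member passed the filter at 0 h, where 1.26% of all genes were called in RA and 1.68% in DEAB. In RA edgeR called 0 of 4, 0 of 9 and 0 of 9 at 1.5, 3 and 4.5 h, beside 2.01%, 0.353% and 0.00994% of all genes, with 2, 1 and 1 at an unadjusted p under 0.05, beside 12%, 8.28% and 8.53%. In DEAB it called 0 of 4, 0 of 9 and 0 of 9, beside 0.571%, 0.0101% and 0.104%, with 0, 1 and 2 at an unadjusted p under 0.05, beside 11.9%, 8.62% and 8.63%. At 3 h the mean was higher in RA than in ethanol for 8 of 9 genes and higher in DEAB than in ethanol for 0 of 9. At 4.5 h the corresponding numbers were 7 of 9 and 0 of 9.

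The clutches differed more than the groups. Labels give stage 11.5 for clutch A and stage 11 for clutches B to F at 1.5 h, stage 11.5 for clutches B and C and stage 12 for clutches A, D, E and F at 3 h, and stages 12 and 12.5 at 4.5 h, so that the same hour covers 2 stages from 1.5 h on. At 3 h, the number of genes with all of A, D, E and F above both B and C was 6 of 9 in RA (median ratio of the means 3.07 over the 9 genes), 0 of 9 in DEAB (1.64), 0 of 9 in ethanol (1.45) and 7 of 9 in control (4.14). Of all 19821 genes that passed the filter at 3 h, 9.56% were separated in this direction in RA, 6.95% in DEAB, 5.79% in ethanol and 10.8% in control. The highest ratio in control was 6.84, for hoxc6.S, with 5.63 to 14.8 CPM in clutches A, D, E and F, against 0.799 and 1.95 CPM in clutches C and B. With 4 clutches against 2 the smallest 2-sided p of an exact permutation test is 0.133, and stage and clutch cannot be told apart.

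**Figure D5:**
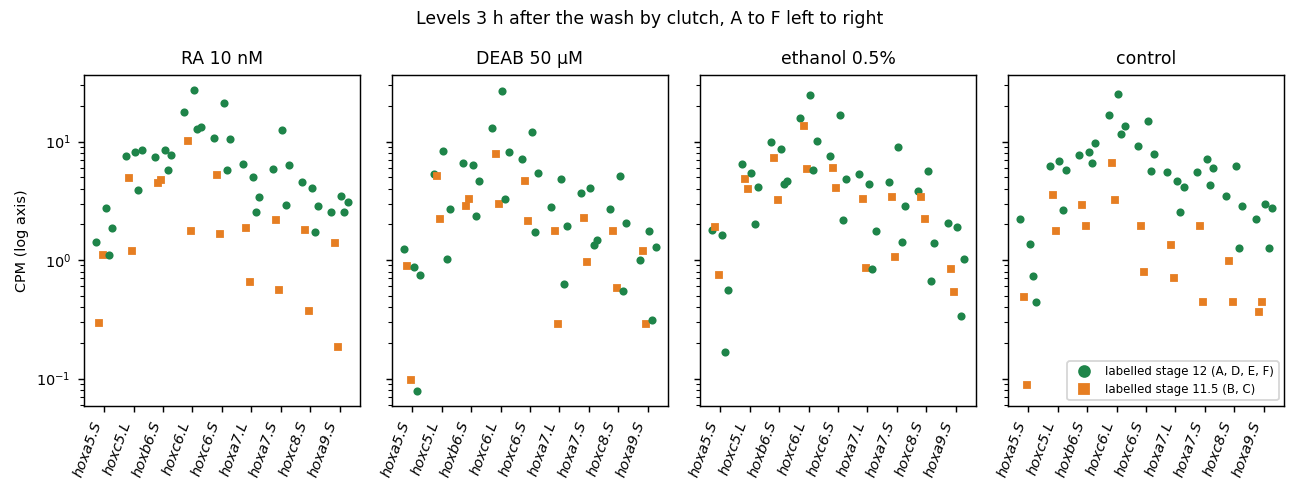
CPM on a log axis (vertical) of each posterior hox gene 3 h after the wash in RA, DEAB, ethanol and control, with clutches A to F from left to right. Circles are the 4 clutches labelled stage 12 and squares the 2 labelled stage 11.5. The squares lie below all circles for 6 of 9 genes in RA, 0 of 9 in DEAB, 0 of 9 in ethanol and 7 of 9 in control, beside 9.56%, 6.95%, 5.79% and 10.8% of all genes.

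Clutch E, although labelled stage 12 at 3 h, was the lowest of the 6 in 12 of 36 sets of gene and group, and clutch C in 21. The sets with clutch E lowest were all in DEAB or ethanol. The highest was clutch D in 23 of 36 sets at 3 h and in 29 of 36 at 4.5 h, with clutch A in 10 and 7. At the shared label of stage 12, clutches B and C at 4.5 h overlapped with clutches A, D, E and F at 3 h for 7 of 9 genes in RA, 3 in DEAB, 2 in ethanol and 8 in control, beside 85.3%, 77.8%, 78.5% and 81.5% of all 21120 genes that passed the filter at 3 and 4.5 h. hoxa7.S in control, for example, had 8.59 CPM in clutch B and 3.94 CPM in clutch C at 4.5 h, against 4.27 to 7.19 CPM in the 4 clutches at 3 h. hoxc5.L in control was the exception, with 11.9 and 7.06 CPM against at most 6.85 CPM.

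The 9 genes moved together across clutches and groups. Pearson's r of their log2 CPM over the 24 libraries at 3 h lay between 0.67, for hoxa5.S with hoxa9.S, and 0.94, for hoxc6.S with hoxc8.S (36 pairs, median 0.85). At 4.5 h it lay between 0.56, for hoxc5.L with hoxb6.S, and 0.92, for hoxc6.L with hoxc6.S (median 0.79). The libraries share clutches, stage and scaling, so these values are a description. In RefSeq's gene table of the v10.1 assembly, used for names and neighbours only, hoxc5.L lies next to hoxc6.L and hoxc6.L next to xhoxc8, hoxc6.S next to hoxc8.S, and hoxa7.S next to hoxa9.S.

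The L and S copies could be compared for hoxc6 and hoxa7. The log2 change in RA against control, averaged over the time points within a clutch, was lower in hoxc6.L than in hoxc6.S by a mean L minus S difference of -0.29 ± 0.47 (SD, n = 6 clutches), and L was above S in 2 of 6 clutches. For hoxa7 the difference was 0.03 ± 0.39, with L above S in 3 of 6. The exact 2-sided sign-flip test gave p = 0.156 and p = 0.844 (adjusted over the 2 pairs, 0.312 and 0.844), and its smallest possible p is 0.03125. Reads that match both copies may have been assigned to either.

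The 10 hox genes of groups 1 to 4 with an L or S symbol, which include genes known as direct RA targets, are given beside the posterior genes. In RA against control 3 of 5 tested were called higher at 0 h and 5 of 7 at 1.5 h. Of all genes, 0.537% and 0.655% were called in either direction at these times. None of 10 was called at 3 or 4.5 h, and the median log2 fold change was 1.57, 1.21, 0.46 and 0.11 at the 4 time points. In RA against DEAB 5 of 5, 7 of 7, 6 of 10 and 7 of 10 were called higher at the 4 time points. Of all genes, 0.464%, 1.04%, 0.969% and 0.815% were called in either direction. At 0 and 1.5 h only 5 and 7 of the 10 passed the filter, in fits that held the RA libraries, so the filter shaped these counts. The posterior genes had 0 of 3, 0 of 9 and 1 of 9 from 1.5 h on. In DEAB against control 3 of 5, 0 of 7, 0 of 10 and 3 of 10 were called lower. Called in either direction were 2.37%, 0%, 0.0361% and 0.263% of all genes. The difference between anterior and posterior genes was not tested.

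Caudal (cdx) genes encode homeodomain factors that act upstream of posterior hox genes. All 6 were called higher in control at 4.5 against 0 h (median 3.44) and 1 of 6 at 4.5 against 3 h. The shares of all genes called higher were 39.6% and 21.9%. None was called in RA against control at any time. In DEAB against control at 0 h 2 of 6 were called lower, beside 2.37% of all genes called in either direction. In RA against DEAB 0, 1, 1 and 0 of 6 were called higher at the 4 time points. Of all genes, 0.464%, 1.04%, 0.969% and 0.815% were called in either direction. The 1 gene at 3 h was cdx4.S (172 CPM in RA and 122 CPM in DEAB, 0.48 ± 0.09, adjusted p = 0.00802). Of the 14 listed pbx and meis copies, whose proteins bind DNA with Hox proteins, 5 were found. In RA against DEAB 1, 1, 1 and 2 of these 5 were called higher at the 4 time points, beside the shares just given. In DEAB against control 1, 0, 0 and 1 of 5 were called lower. Called in either direction there were 2.37%, 0%, 0.0361% and 0.263% of all genes. meis3.L was higher in RA than in DEAB at 3 h (179 and 101 CPM, 0.80 ± 0.11, adjusted p = 0.000918) and lower in DEAB than in control at 4.5 h (122 and 181 CPM, -0.57 ± 0.09, adjusted p = 0.0152).

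Of 28 listed posterior and tail bud genes, such as brachyury, Wnt, Fgf and cyp26a1 copies, 12 were found. In control at 4.5 against 0 h 10 of these 12 were called higher and 1 lower (median 1.90). Of all genes, 39.6% were called higher and 82.9% in either direction. In RA against control none of 12 was called higher at 3 or 4.5 h. At 0 h 2 of 11 were called higher and at 1.5 h 2 of 12, beside 0.537% and 0.655% of all genes called. The 2 genes were cyp26a1.L and cyp26a1.S both times, copies of the gene of the RA-degrading enzyme that also served as the treatment check. The median log2 fold change of the list was -0.16 at 0 h and -0.27 at 1.5 h, beside a median near 0 over all genes. At these times it was -0.25 and -0.08 in DEAB and -0.18 and -0.11 in ethanol against control. A median below 0 at 0 h was thus not particular to RA. In RA msgn1.L, a gene of the presomitic mesoderm, stood at -1.26 (adjusted p = 0.0857) and the brachyury copy t.S at -0.49 (adjusted p = 0.0864) at 0 h. In RA against DEAB at 4.5 h cyp26a1.L and cyp26a1.S were called higher and the brachyury copies t.L (-0.26) and t.S (-0.28) lower. The same 2 brachyury copies were the 2 of 9 mesoderm markers called lower in this comparison, beside 0.815% of all genes called in either direction. Their part in the difference of hoxa7.L was not tested.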

How the data were processed

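The deposited counts are whole reads per gene, which the authors obtained by Illumina sequencing, alignment with STAR to the X. laevis 9.1 genome and counting with verse, without normalization. The strand setting is not given in the sources used here, and reads of near-identical L and S copies could be split between them. The deposited log2 values of the control, RA and DEAB libraries were made by the authors from these counts with DESeq2's regularized log, ComBat, removal of weakly expressed genes and quantile normalization, and served here for the list of genes from which members were taken by symbol, and as an alternative. Columns of the tables were matched to libraries by name, and the number of columns of other samples was 0.

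Counts were tested with edgeR 4.0.16 in R 4.3.3 (quasi-likelihood test, TMM scaling, filterByExpr, clutch as a block, Benjamini-Hochberg adjustment at 0.05 over all genes tested). Each time point had 1 fit of 18 RA, DEAB and control libraries, with 19376 to 19750 genes. Ethanol was tested in a fit of 12 ethanol and control libraries, the time course in 24 control libraries (20295 genes) and the interaction in 72 libraries. Standard errors were derived by dividing each absolute log2 fold change by the root of its F statistic. CPM are counts over the library total scaled by TMM, and log2 CPM used a prior count of 2. Intervals of summed counts are exact and cover counting error only.

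The pairing comes from the study's design, in which all groups of a clutch come from a single female. Over 72 pairs of a treated and a control library of a clutch and time point, the deviations from the group means correlated at 0.495 to 0.868. Alternatives were DESeq2 1.42.0, limma 3.58.1 on the deposited log2 values, no filter, no replicate block, 1 fit of all time points, ethanol as the reference, a fit of 24 libraries for ethanol, a prior count of 0.5 and the omission of each clutch in turn. Clutches A, D, E and F alone were added after the data had been seen. On simulated counts of the RA and control comparison at 3 h, with 200 genes changed by 1 on the log2 scale, 19329 genes passed the filter, 198 changed genes among them. edgeR called 180 of these with the simulated sign and 2 genes that had been left unchanged. The changed genes were drawn from all genes passing the filter, and no difference between clutches was simulated. The result therefore does not give the chance of a call for the posterior hox genes.

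The members, the other gene lists and the tests were chosen with earlier results of these data known. All members are reported. By the rule for named genes, those called in a treatment comparison, or among the 5 with the largest rise in control by the fitted log2 fold change, were to be given in every clutch, and the others by ranges. Every clutch is printed for hoxa7.L at 4.5 h only, and the 5 with the largest rise are given by their lowest, median and highest clutch. Shares of all genes separated or overlapping by stage label used the same CPM and a filterByExpr filter over the 4 groups. No sequences or coordinates are given, because the reference used here held gene names of another assembly only.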

Additional observations from a re-analysis of the deposited data

Results flagged for a closer look

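In 92 sets of 6 libraries (gene, group and time point with at least 10 counts in the highest library), the highest or the lowest library was compared with its nearest neighbour, and in 9 sets the gap took a larger part of the range than Dixon's 95% critical value for 6 samples. Chance flags about 1 in 20 such sets, and the sets share libraries. Clutch D was the highest in each of the 9. In RA at 4.5 h it had 10.3 CPM of hoxa5.S, with the next clutch at 4.88 CPM. In ethanol at 4.5 h it had 20.7 CPM of hoxb6.S, 49.6 CPM of hoxc6.L, 38.0 CPM of hoxc6.S and 19.2 CPM of hoxa7.S, with the next clutch at 12.8, 32.0, 21.9 and 11.2 CPM. In ethanol clutch D also had 16.8 CPM of hoxc6.S at 3 h, and 3.24 CPM of hoxc6.L and 2.23 CPM of hoxc6.S at 1.5 h. In control at 1.5 h it had 2.29 CPM of hoxc6.S, with the next clutch at 0.769 CPM.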

How the results depend on the processing

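The counts of called posterior hox genes in RA, DEAB and ethanol against control were 0 with DESeq2, limma (RA and DEAB only), no filter, no replicate block, 1 fit of all time points, ethanol as the reference (RA and DEAB, with no member tested at 0 h) and 24 libraries for ethanol. In RA against DEAB the main counts were 0, 0, 0 and 1 at 0, 1.5, 3 and 4.5 h. At 4.5 h the count was 0 with no replicate block, DESeq2, 1 fit of all time points, limma, and clutches A, D, E and F alone, and without each clutch in turn it was 0 to 0. At 1.5 h it was 1 (hoxc6.L) and at 3 h 3 with no filter, and the same numbers were called in clutches A, D, E and F alone, where DEAB against control also gave 1 (hoxa7.S) at 3 h. Without each clutch in turn RA against DEAB gave 0 to 1 at 1.5 h and 0 to 1 at 3 h, and DEAB against control 0 to 1 at 4.5 h. For the fits without the filter, of clutches A, D, E and F alone and without each clutch, shares of all genes called are not given. Their counts cannot be read as a trait of the members. Over time in control, no replicate block gave 3 of 9 (main 9) at 4.5 against 3 h, and limma 2 of 9 (main 7) at 1.5 against 0 h, where the fitted log2 change turned to -0.01 for both hoxa9.S (-0.0128) and hoxa7.S (-0.0118). The cause of these changes was not tested. Of the other single-gene results over time, 355 kept their call and direction and 17 kept only the direction. The interaction stayed at 0 calls in the 8 alternatives run, and the homeolog differences with a prior count of 0.5 were -0.43 for hoxc6 and 0.05 for hoxa7. At 0 h no member passed the filter, and the highest count of any member in a library was 14, in libraries with totals of 10829562 to 15869722.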

Other observations

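Beside the 9 members, 2 posterior hox genes whose symbols carry no L or S had counts and were put in no comparison. xhoxc8, which RefSeq places next to hoxc6.L, ran from 4.89 through 9.17 to 15.1 CPM in RA at 4.5 h (lowest, median and highest clutch), from 5.82 through 7.84 to 14.9 CPM in DEAB, from 5.14 through 9.40 to 15.6 CPM in ethanol and from 5.35 through 10.6 to 15.6 CPM in control. hoxb9 ran from 1.02 through 4.56 to 13.9 CPM in RA, from 0.643 through 2.54 to 5.73 CPM in DEAB, from 1.50 through 4.05 to 7.36 CPM in ethanol and from 1.51 through 4.87 to 7.12 CPM in control. At 0 h both were near 0 in control, with medians of 0.0659 and 0.0693 CPM. The ranges of all 4 groups overlapped for both genes at 4.5 h.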
